A study of Mus musculus with 13 samples.

Results

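The 10 genes described here encode the T cell coreceptors CD4 and CD8 and the transcription factors that steer a thymocyte to the CD4 or the CD8 lineage. They are *Cd4*, *Cd8a*, *Cd8b1*, *Zbtb7b*, *Runx3*, *Gata3*, *Tox*, *Patz1*, *Lef1* and *Tcf7*. They form a list by function, drawn up with earlier results of these data known, and for each gene the estimated counts and the TPM of its transcripts were summed in all 13 libraries. They are 10 of 35906 genes with a transcript in the files, and all 10 passed the filter on low counts in every comparison.

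A thymocyte that carries both coreceptors becomes a CD4 or a CD8 T cell according to the class of MHC molecule that its receptor recognizes. ThPOK, the zinc finger protein encoded by *Zbtb7b*, is required for the CD4 fate and keeps CD8-lineage genes silent, whereas RUNX3 silences *Cd4* and sustains *Cd8a* and *Cd8b1* in CD8 cells. GATA3 and TOX act ahead of ThPOK, TCF1 (*Tcf7*) and LEF1 act on both lineages, and MAZR (*Patz1*) represses *Cd8* and *Zbtb7b* before the choice is made.

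The cells were mature (M2, CD69-MHCI+) CD4 single-positive (CD4SP) thymocytes sorted by flow cytometry from adult mice of the C57BL/6J background, 1 mouse per library. All mice were Rag1-/- and carried the transgenic T cell receptor Lm54, which recognizes the listeriolysin O peptide LLO on the MHC class II molecule I-Ab, so that both genotypes held T cells of a single specificity. *Ctsl*ΔTEC mice had a conditional *Ctsl* allele and the transgene Foxn1-cre, which removes the protease cathepsin L from thymic epithelial cells and not from the thymocytes sequenced, and controls were labelled *Ctsl* fl/fl (WT). There were 5 *Ctsl*ΔTEC and 4 control mice without stimulation, and 2 *Ctsl*ΔTEC and 2 control mice whose sorted cells had been cultured for 4 h with 1 μg/ml plate-bound LLO:I-Ab monomer and 250 ng/ml soluble anti-CD28. The CD4SP gate is itself set on the CD4 and CD8 proteins, so transcripts of the coreceptor genes were measured in cells chosen by those proteins. The *Ctsl* level of thymocytes does not check a deletion in epithelium, and it was 11.4 to 17.9 CPM in unstimulated *Ctsl*ΔTEC cells and 6.31 to 8.84 CPM in controls. *Rag1* transcripts were counted despite the Rag1-/- label, at 11.9, 4.51, 26.5, 15.8 and 5.16 CPM in unstimulated *Ctsl*ΔTEC mice, 5.13, 2.84, 3.72 and 2.78 CPM in controls and at most 1.44 CPM after stimulation, and the counts per transcript do not show whether they cover the deleted part, so they do not check the label.

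Libraries held 25692380 to 39127833 estimated counts without stimulation and 8085463, 11792192, 16866027 and 27184520 with it. All 8 genes of a list induced by T cell receptor signals rose on stimulation in both genotypes, beside 32.9% of all genes. The list summed to 202 to 458 TPM before it, and after it to 10500 to 10800 TPM in *Ctsl*ΔTEC mice and 7470 to 9680 TPM in controls. Between stimulated genotypes 0 of the 8 were called higher and 1 lower in *Ctsl*ΔTEC cells, beside 2.77% and 10.6% of all genes. *Il2* was then at 4.18 to 7.79 TPM in *Ctsl*ΔTEC mice and 71.1 to 73.0 TPM in controls. All stimulated libraries carry a single date in their names and no cells were cultured without antigen, so stimulation, culture and date cannot be told apart. The 4 Y-linked genes were expressed in all 5 unstimulated *Ctsl*ΔTEC mice but in 1 of 4 controls (mouse 3), and in 1 mouse of each genotype after stimulation. NK and B cell markers were near 0 in every group (at most 0.767 and 1.79 TPM summed over 3 and 4 genes), *Ncr1* was at 0 in all libraries, and the myeloid and dendritic cell list of 8 genes summed to at most 9.72 TPM. Of 3 genes of gamma delta T cells, *Trdc* was at 69.5 to 99.0 TPM in unstimulated *Ctsl*ΔTEC mice and 49.3 to 59.0 TPM in controls, and *Tcrg-C1* and *Sox13* were at most 4.05 TPM. Without stimulation 1 of the 3 was called higher and 2 lower in *Ctsl*ΔTEC cells, beside 6.42% and 8.36% of all genes. The 4 regulatory T cell genes summed to 9.68 to 14.4 TPM in unstimulated *Ctsl*ΔTEC mice and 3.34 to 7.23 TPM in controls, mostly *Ctla4* (median 8.47 and 1.81 TPM) and *Il2ra* (3.48 and 0.736 TPM), whereas *Foxp3* (0.684 and 0.811 TPM) and *Ikzf2* (0.682 and 0.946 TPM) had lower medians in *Ctsl*ΔTEC mice. Of the 4, 2 were called higher and 1 lower, beside 6.42% and 8.36% of all genes. Erythroid genes summed to 160 to 771 TPM and 189 to 318 TPM. The part of these in the results was not tested.

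The promoter windows of *Cd8a*, *Zbtb7b*, *Runx3* and *Lef1* are printed, *Cd8a* for the largest difference between genotypes and the others because their transcripts were compared by start. Each window runs from 250 bases before to 50 bases after a transcript start in RefSeq (GRCm38.p6), 5′ to 3′ on the gene's strand. Capitals mark 6-base words of lineage factors, searched on both strands. The RUNX word was TGTGGT, as bound by RUNX3 and its relatives. The TCF/LEF word was CTTTGA, as bound by TCF1 and LEF1. The GATA words were AGATAA and, with a different first base, TGATAA. The E-box words, which basic helix-loop-helix factors bind, were CAGGTG and, with a single different base, CAGCTG. The word of the ETS family was AGGAAG. No 2 marked words overlapped in any window.
Cd8a, chr6:71373177-71373476, plus strand: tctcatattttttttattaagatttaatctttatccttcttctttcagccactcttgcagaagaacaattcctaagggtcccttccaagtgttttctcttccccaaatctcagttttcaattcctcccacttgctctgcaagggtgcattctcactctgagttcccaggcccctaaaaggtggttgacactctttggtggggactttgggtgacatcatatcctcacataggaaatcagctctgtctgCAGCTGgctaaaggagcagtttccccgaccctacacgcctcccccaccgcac
Zbtb7b upstream start, chr3:89393329-89393628, minus strand: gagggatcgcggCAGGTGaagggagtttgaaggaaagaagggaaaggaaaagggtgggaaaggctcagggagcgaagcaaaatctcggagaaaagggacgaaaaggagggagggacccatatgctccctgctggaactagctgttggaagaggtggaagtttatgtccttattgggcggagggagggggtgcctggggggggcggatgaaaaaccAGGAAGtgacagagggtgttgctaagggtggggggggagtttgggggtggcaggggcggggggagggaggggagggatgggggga
Zbtb7b downstream start, chr3:89387622-89387921, minus strand: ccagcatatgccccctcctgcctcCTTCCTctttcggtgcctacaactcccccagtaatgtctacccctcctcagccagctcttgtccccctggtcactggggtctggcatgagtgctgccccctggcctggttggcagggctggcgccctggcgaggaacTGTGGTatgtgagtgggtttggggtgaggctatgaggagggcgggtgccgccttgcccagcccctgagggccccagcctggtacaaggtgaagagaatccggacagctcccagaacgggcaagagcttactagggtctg
Runx3 upstream start, chr4:135120395-135120694, plus strand: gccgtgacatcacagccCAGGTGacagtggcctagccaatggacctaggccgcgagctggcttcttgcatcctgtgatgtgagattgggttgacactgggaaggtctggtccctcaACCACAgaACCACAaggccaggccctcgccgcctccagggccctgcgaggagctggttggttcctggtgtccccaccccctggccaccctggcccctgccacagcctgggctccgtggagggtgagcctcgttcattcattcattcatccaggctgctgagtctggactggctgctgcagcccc
Runx3 downstream start, chr4:135152295-135152594, plus strand: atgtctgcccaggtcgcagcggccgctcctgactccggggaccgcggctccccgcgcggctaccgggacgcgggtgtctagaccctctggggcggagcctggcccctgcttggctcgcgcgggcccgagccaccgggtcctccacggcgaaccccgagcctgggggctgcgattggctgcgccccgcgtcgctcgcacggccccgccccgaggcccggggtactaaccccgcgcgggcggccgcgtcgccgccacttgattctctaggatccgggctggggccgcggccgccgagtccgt
Lef1 upstream start, chr3:131110073-131110372, plus strand: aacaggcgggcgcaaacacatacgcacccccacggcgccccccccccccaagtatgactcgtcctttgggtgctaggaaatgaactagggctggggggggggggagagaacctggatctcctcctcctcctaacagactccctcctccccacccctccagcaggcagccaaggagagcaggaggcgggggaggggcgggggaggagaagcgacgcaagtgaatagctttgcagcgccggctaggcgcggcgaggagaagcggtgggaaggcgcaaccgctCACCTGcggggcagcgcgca
Lef1 downstream start, chr3:131112541-131112840, plus strand: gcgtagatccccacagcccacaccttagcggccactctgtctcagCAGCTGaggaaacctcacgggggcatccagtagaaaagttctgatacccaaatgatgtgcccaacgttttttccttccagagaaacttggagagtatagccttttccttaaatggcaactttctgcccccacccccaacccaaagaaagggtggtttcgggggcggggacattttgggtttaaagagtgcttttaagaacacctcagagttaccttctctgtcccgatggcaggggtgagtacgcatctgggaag
The upstream *Runx3* window held 2 RUNX words and the downstream *Zbtb7b* window held 1. The *Zbtb7b* windows lie at the annotated starts of Zbtb7b-209 and Zbtb7b-204. The start of Zbtb7b-203, the downstream transcript compared between libraries, lies further downstream and outside the printed window. The start of Lef1-201 likewise lies beyond the upstream *Lef1* window. RUNX words were present in 2 of the 14 windows found for the 10 genes and in 16.8% of all 32851 windows in the table, E-box words in 9 of 14 and 32.9%, ETS words in 3 of 14 and 35.4%, TCF/LEF words in 2 of 14 and 16.0%, and GATA words in 1 of 14 and 18.6%. A match describes the letters of the window and is not evidence of binding. The 14 windows belonged to *Cd8a*, *Gata3*, *Lef1*, *Patz1*, *Runx3*, *Tcf7* and *Zbtb7b*, and no window was used for *Cd4*, *Cd8b1* and *Tox*.

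Per length, the order of levels in unstimulated controls ran from *Tcf7* at 1714 ± 43.9 TPM (SD, n = 4) through *Cd4* at 579 ± 19.5, *Lef1* at 241 ± 47.2, *Zbtb7b* at 219.6 ± 35.4, *Patz1* at 68.4 ± 7.25, *Tox* at 61.2 ± 5.79, *Gata3* at 53.3 ± 5.65, *Runx3* at 40.6 ± 5.50 and *Cd8b1* at 32.7 ± 4.79 to *Cd8a* at 2.27 ± 0.140. The ranges of *Lef1* and *Zbtb7b*, of *Patz1* and *Tox*, of *Tox* and *Gata3* and of *Runx3* and *Cd8b1* overlapped. In unstimulated *Ctsl*ΔTEC cells *Cd8b1* came next after *Zbtb7b* at 156 ± 17.1 TPM (n = 5), and its range overlapped that of *Zbtb7b* at 166 ± 30.2 TPM. *Cd8a* was the lowest of the 10 in that group too, at 15.8 ± 2.06 TPM. After stimulation *Cd4* was the highest of the 10 in both genotypes, at 390 ± 24.4 TPM in *Ctsl*ΔTEC cells (n = 2) and 411 ± 118 TPM in controls (n = 2).

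**Figure D1:**
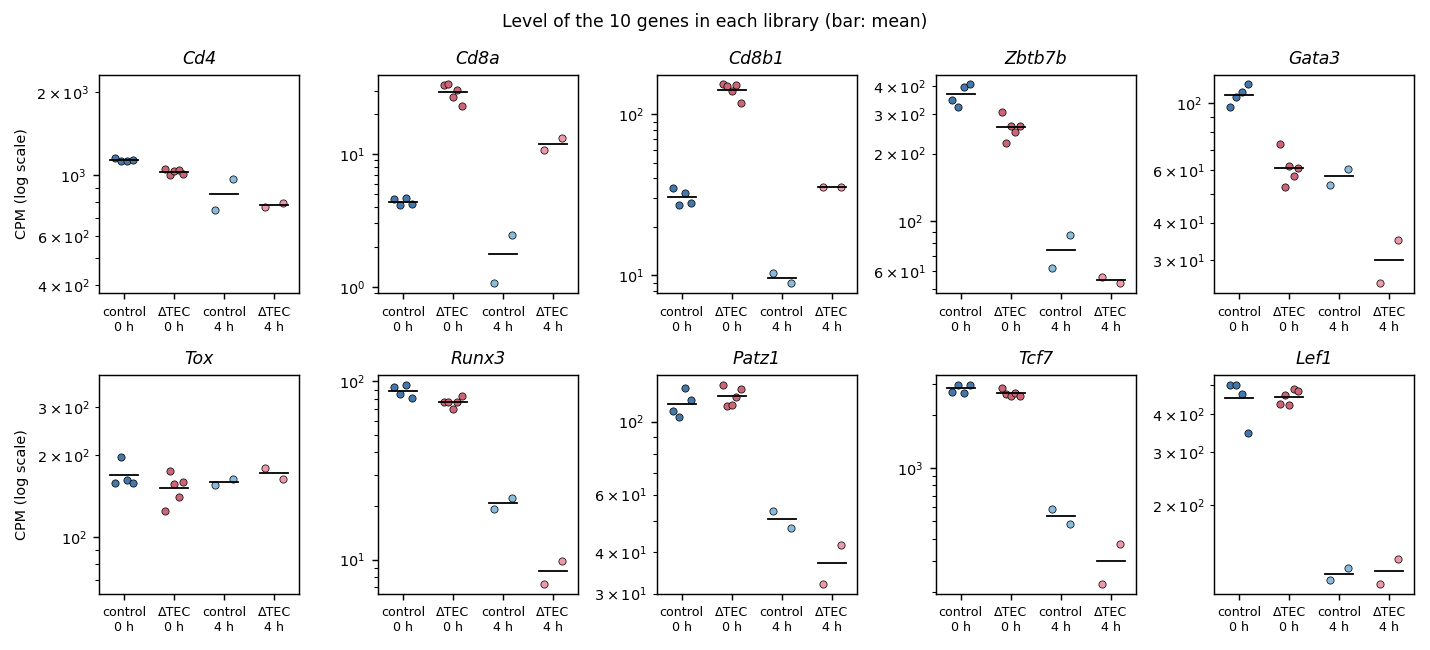
CPM on a log axis (y) of the 10 genes in each of the 13 libraries, by genotype and hours of stimulation (x). Each point is 1 mouse and each bar a group mean. Cd8a and Cd8b1 of CtslΔTEC mice lie above controls at both times, and 9 of the 10 genes lie lower after stimulation in both genotypes, Tox being the exception.

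Between genotypes without stimulation, 5 of the 10 genes differed (quasi-likelihood test of edgeR, threshold 0.1 on the adjusted p), 2 higher and 3 lower in *Ctsl*ΔTEC cells, against 14.8% of all 13152 genes tested. *Cd8a* and *Cd8b1* were higher, and *Gata3*, *Zbtb7b* and *Runx3* were lower. The median log2 fold change of the 10 was -0.12, beside 0.01 over all genes tested. In bulk libraries fewer cells of a type and less RNA per cell cannot be told apart.

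*Cd8a* (chromosome 6, 71373427 to 71379173, plus strand) encodes the CD8 alpha chain, which pairs with itself or with the beta chain. It measured 32.9, 33.5, 26.8, 30.5 and 23.1 CPM (estimated counts scaled to a common library size by TMM) in *Ctsl*ΔTEC mice 1 to 5 and 4.55, 4.10, 4.65 and 4.22 CPM in control mice 1 to 4. The groups lay far apart, and controls varied little. The log2 fold change was 2.75 ± 0.12 (SE, adjusted p = 2.8e-07, edgeR), or 6.71-fold, the third smallest p of all genes tested. *Cd8b1* (chromosome 6, 71322788 to 71337494, plus strand), 35933 bases before *Cd8a*, encodes the CD8 beta chain. It measured 153, 149, 140.5, 151 and 118 CPM in *Ctsl*ΔTEC mice and 34.7, 27.4, 32.6 and 28.2 CPM in controls, again without overlap. Its log2 fold change was 2.22 ± 0.10 (adjusted p = 2.8e-07, edgeR), or 4.65-fold.

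The CD8 chains were not higher in equal measure. Within a library, the TPM of *Cd8b1* was 9.24, 9.13, 10.99, 10.4 and 9.99 times that of *Cd8a* in *Ctsl*ΔTEC mice and 15.7, 13.3, 14.9 and 13.3 times in controls. Every *Ctsl*ΔTEC ratio was below every control ratio, a difference of -0.53 on the log2 scale (exact permutation test, two-sided, p = 0.00794, the smallest that 5 against 4 mice allow, adjusted p = 0.0159 over 4 ratios). *Cd8a* therefore had the larger relative difference of the CD8 chains. After stimulation the ratio was 6.23 and 5.53 in *Ctsl*ΔTEC mice 6 and 7 and 17.9 and 8.31 in control mice 5 and 6, the last pair resting on 8 and 63 counts of *Cd8a*.

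*Cd4* (chromosome 6, 124864692 to 124888221, minus strand) encodes the coreceptor that binds MHC class II. It measured 1053, 1004, 1037, 1043 and 1010 CPM in *Ctsl*ΔTEC mice and 1156, 1128, 1128 and 1137 CPM in controls. The groups did not overlap, yet the distance was small, with a log2 fold change of -0.14 ± 0.05 (adjusted p = 0.122, edgeR), and DESeq2 gave an adjusted p of 0.00372 for the same value. An exact permutation test on *Cd4* alone gave an unadjusted p = 0.00794, the smallest possible. This restates the lack of overlap and adds no support to it. The TPM of *Cd4* over that of *Cd8a* and *Cd8b1* together was 3.08, 2.93, 3.19, 2.99 and 3.76 in *Ctsl*ΔTEC mice and 14.9, 18.3, 15.5 and 18.3 in controls, a log2 difference of -2.39 (exact permutation test, p = 0.00794, adjusted p = 0.0159). The ratio largely restates the higher CD8 chains, since *Cd4* itself differed little.

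Transcripts typical of double-positive thymocytes, which carry CD4 and CD8 together, were in part higher beside *Cd8a* and *Cd8b1*. Of 11 such genes that are not among the 10, 10 were tested without stimulation, 6 were higher in *Ctsl*ΔTEC cells, none was lower and 4 did not pass, with a median log2 fold change of 0.77. Of all genes tested 6.42% were called higher and 8.36% lower. Their summed level was 399 to 468 TPM in *Ctsl*ΔTEC mice and 268 to 297 TPM in controls. *Rag2* was near 0 throughout, at 0.0414 to 1.12 TPM and 0 to 0.153 TPM. *Dntt*, which encodes terminal transferase, measured 68.2, 63.9, 87.8, 82.6 and 69.8 CPM in *Ctsl*ΔTEC mice and 27.0, 14.3, 20.3 and 21.7 CPM in controls. It was higher by 1.84 ± 0.16 (log2, adjusted p = 3.5e-05, edgeR), *Ccr9* by 0.96 ± 0.12 (adjusted p = 0.000301, edgeR) and *Arpp21* by 0.89 ± 0.18 (adjusted p = 0.00684, edgeR). After stimulation 2 of the 11 were higher, 1 was lower and 8 did not pass (median 0.01), beside 2.77% and 10.6% of all genes called higher and lower. *Ccr9* was then higher by 0.96 ± 0.22 (adjusted p = 0.0137, edgeR) and *Arpp21* by 1.15 ± 0.36 (adjusted p = 0.0634, edgeR). *Cd1d1* was the lower gene, at -0.648 ± 0.145 (adjusted p = 0.0118, edgeR). *Dntt* averaged 4.21 CPM in *Ctsl*ΔTEC cells and 3.75 CPM in controls. The interaction passed for 3 of the 11, all negative, beside 4.88% of all genes. These were *Cd1d1* (-1.03 ± 0.165, adjusted p = 0.00497, edgeR), *Dntt* (-1.55 ± 0.42, adjusted p = 0.06, edgeR) and *Themis* (-0.898 ± 0.253, adjusted p = 0.0682, edgeR). The part of such cells in the *Cd8a* and *Cd8b1* difference was not tested.

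Genes typical of CD8-lineage T cells are listed apart from the CD8 chains. Of 12 listed, 8 were tested without stimulation, 1 was higher, 3 were lower and 4 did not pass. The median log2 fold change was -0.32, and 6.42% of all genes were called higher and 8.36% lower. *Nkg7*, a cytotoxic granule gene, was lower, at -2.19 ± 0.26 on the log2 scale (adjusted p = 0.000242, edgeR), *Ctsw*, a cathepsin of cytotoxic cells, at -1.15 ± 0.18 (adjusted p = 0.00167, edgeR) and *Klrd1*, which encodes CD94, at -1.21 ± 0.22 (adjusted p = 0.00438, edgeR). These levels were low, with means of 0.466 CPM in *Ctsl*ΔTEC mice and 2.16 CPM in controls for *Nkg7*. The means were 11.1 and 24.8 CPM for *Ctsw* and 1.09 and 2.5 CPM for *Klrd1*. *Prf1*, which encodes perforin, was higher by 0.46 ± 0.14 (adjusted p = 0.0517, edgeR), at 10.4 and 7.55 CPM. *Tbx21* and *Gzmb* were at 0 in all 9 libraries, and the list summed to 34.0 to 38.4 TPM in *Ctsl*ΔTEC mice and 51.2 to 63.8 TPM in controls. After stimulation 10 of the 12 were tested, 1 was higher, 1 was lower and 8 did not pass (median -0.28). Of all genes 2.77% were then called higher and 10.6% lower. Without stimulation, genes of mature single-positive cells were mostly lower, with 6 of 8 lower and 2 higher (median -0.45), beside the 8.36% and 6.42% of all genes. Among those lower were *Il7r* (-1.08 ± 0.17, adjusted p = 0.00194, edgeR) and *Foxo1* (-0.46 ± 0.07, adjusted p = 0.00167, edgeR). The 2 higher were the MHC class I genes *H2-K1* (log2 0.349, adjusted p = 0.0467, edgeR) and *H2-D1* (log2 0.345, adjusted p = 0.0633, edgeR). The list therefore did not move in a single direction.

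*Gata3* (chromosome 2, 9857078 to 9890034, minus strand) encodes the factor that acts ahead of ThPOK in CD4 commitment. It measured 73.1, 52.6, 61.7, 57.2 and 60.7 CPM in *Ctsl*ΔTEC mice and 97.4, 105, 109 and 116 CPM in controls. All *Ctsl*ΔTEC mice were below all controls, with a log2 fold change of -0.80 ± 0.09 (adjusted p = 0.000176, edgeR). *Zbtb7b* (chromosome 3, 89377644 to 89394776, minus strand) measured 307, 223, 267, 249 and 265 CPM in *Ctsl*ΔTEC mice and 346, 324, 394 and 406 CPM in controls, also without overlap. Its log2 fold change was -0.48 ± 0.10 (adjusted p = 0.00821, edgeR). *Tox* (chromosome 4, 6686353 to 6991557, minus strand), an HMG-box factor needed for the CD4 lineage, measured 124, 174, 156, 140.2 and 159 CPM and 158, 196, 161 and 158 CPM. The groups overlapped and the fold change of -0.16 ± 0.10 (log2) did not pass (adjusted p = 0.397, edgeR).

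*Runx3* (chromosome 4, 135120652 to 135177990, plus strand) measured 77.0, 76.9, 70.0, 76.3 and 82.3 CPM in *Ctsl*ΔTEC mice and 93.1, 85.3, 95.8 and 81.0 CPM in controls. *Ctsl*ΔTEC mouse 5 lay above control mouse 4, and the log2 fold change of -0.21 ± 0.07 passed narrowly (adjusted p = 0.0715, edgeR), a call lost in 14 of the 23 other settings tried. *Runx3* was not called higher in the *Ctsl*ΔTEC libraries, where *Cd8a* was higher, and its part in that difference was not tested. The TPM of *Zbtb7b* over that of *Runx3* was 5.38, 3.73, 5.11, 4.65 and 4.63 in *Ctsl*ΔTEC mice and 5.25, 4.46, 5.27 and 6.83 in controls, overlapping ranges with a log2 difference of -0.21 (exact permutation test, p = 0.254, adjusted p = 0.339). *Patz1* (chromosome 11, 3288874 to 3309083, plus strand) measured 112 to 130 CPM in *Ctsl*ΔTEC mice and 103 to 126.5 CPM in controls, with a log2 fold change of 0.08 ± 0.08 (adjusted p = 0.585, edgeR).

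*Tcf7* (chromosome 11, 52252371 to 52283014, minus strand) was the most abundant of the 10 before stimulation. It measured 2830, 2628, 2550, 2668 and 2572 CPM in *Ctsl*ΔTEC mice and 2713, 2952, 2668 and 2963 CPM in controls, with overlap and a log2 fold change of -0.09 ± 0.06 (adjusted p = 0.445, edgeR). *Lef1* (chromosome 3, 131110471 to 131224356, plus strand) measured 431 to 484 CPM in *Ctsl*ΔTEC mice and 347 to 502 CPM in controls, with a log2 fold change of 0.02 ± 0.10 (adjusted p = 0.944, edgeR). The TPM of *Tcf7* over that of *Lef1* was 6.09 to 8.0 and 6.20 to 10.2, with overlap (log2 difference -0.14, exact permutation test, p = 0.508, adjusted p = 0.508).

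The expression of Y-linked genes was unequal between the genotypes before stimulation. With the mean log2 CPM of 4 Y-linked genes as a covariate, *Cd8a* (2.67), *Cd8b1* (2.13) and *Gata3* (-0.81) kept their calls. *Zbtb7b* had a log2 fold change of -0.56 and *Runx3* of -0.32, further from 0 than without the covariate, and neither passed (adjusted p = 0.132 and 0.211, edgeR). Control mouse 3, which expressed these genes, measured 394 CPM of *Zbtb7b*, 109 CPM of *Gata3* and 4.65 CPM of *Cd8a*, within or beside the range of the other 3 controls and outside that of *Ctsl*ΔTEC mice. Among the 3 *Ctsl*ΔTEC and 3 control libraries of the later date alone, the same 5 genes passed, at 2.71, 2.14, -0.87, -0.53 and -0.22 for *Cd8a*, *Cd8b1*, *Gata3*, *Zbtb7b* and *Runx3*.

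After 4 h of stimulation 6 of the 10 genes differed between genotypes, 2 higher and 4 lower in *Ctsl*ΔTEC cells, against 13.3% of 14241 genes tested in the 4-group model. The median log2 fold change of the 10 was -0.28, beside -0.06 over all genes. *Cd8a* and *Cd8b1* were higher, and *Runx3*, *Gata3*, *Tcf7* and *Patz1* were lower. Each group had 2 mice, with which an exact test on 1 gene cannot pass, so only the model across all genes was used.

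*Cd8a* measured 10.7 and 13.2 CPM in *Ctsl*ΔTEC mice 6 and 7 and 1.06 and 2.45 CPM in control mice 5 and 6, a log2 fold change of 2.59 ± 0.27 (adjusted p = 8.8e-05, edgeR). Control mouse 5 held 8 counts of *Cd8a*, and without control mouse 6, which left that library alone in its group, the value was 3.49. *Cd8b1* measured 35.4 and 35.2 CPM against 10.3 and 8.89 CPM, a log2 fold change of 1.90 ± 0.16 (adjusted p = 2.9e-05, edgeR). The *Cd4* values of 768 and 793 CPM lay within the control values of 745 and 967 CPM (log2 -0.13 ± 0.11, adjusted p = 0.52, edgeR).

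*Runx3* had the largest difference after the CD8 chains. It measured 7.31 and 9.86 CPM in *Ctsl*ΔTEC mice and 19.3 and 22.3 CPM in controls, a log2 fold change of -1.27 ± 0.15 (adjusted p = 0.000174, edgeR). *Tcf7* measured 222 and 374 CPM against 589 and 481 CPM (-0.84 ± 0.18, adjusted p = 0.00908, edgeR), and the size of this difference depended on *Ctsl*ΔTEC mouse 6, without which it was -0.52, and on mouse 7, without which it was -1.28. *Patz1* measured 32.1 and 42.1 CPM against 53.5 and 47.5 CPM (-0.43 ± 0.14, adjusted p = 0.0665, edgeR), a call lost in 8 of 24 other settings. The value was -0.26 without *Ctsl*ΔTEC mouse 6, where it did not pass, and -0.66 without mouse 7. *Lef1* measured 109 and 133 CPM against 113 and 123 CPM, and its log2 fold change of 0.03 ± 0.16 did not pass (adjusted p = 0.94, edgeR).

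*Gata3* measured 25.1 and 35.0 CPM in *Ctsl*ΔTEC mice and 53.6 and 60.4 CPM in controls, a log2 fold change of -0.92 ± 0.17 (adjusted p = 0.00328, edgeR). On the TPM scale the groups overlapped, at 25.5 and 17.7 against 20.7 and 35.7 TPM. Transcript Gata3-205, a noncoding form of 243 bases, held 20.8% to 61.4% of *Gata3* TPM in the 2 *Ctsl*ΔTEC libraries and 0% to 27.0% in the controls, and with transcript length as an offset the log2 fold change was -0.43 and did not pass (adjusted p = 0.245, edgeR). *Zbtb7b* measured 56.3 and 52.9 CPM against 62.0 and 87.1 CPM (-0.46 ± 0.17, adjusted p = 0.115, edgeR), and *Tox* 180 and 164 CPM against 155 and 163 CPM (0.11 ± 0.15, adjusted p = 0.722, edgeR).

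**Figure D2:**
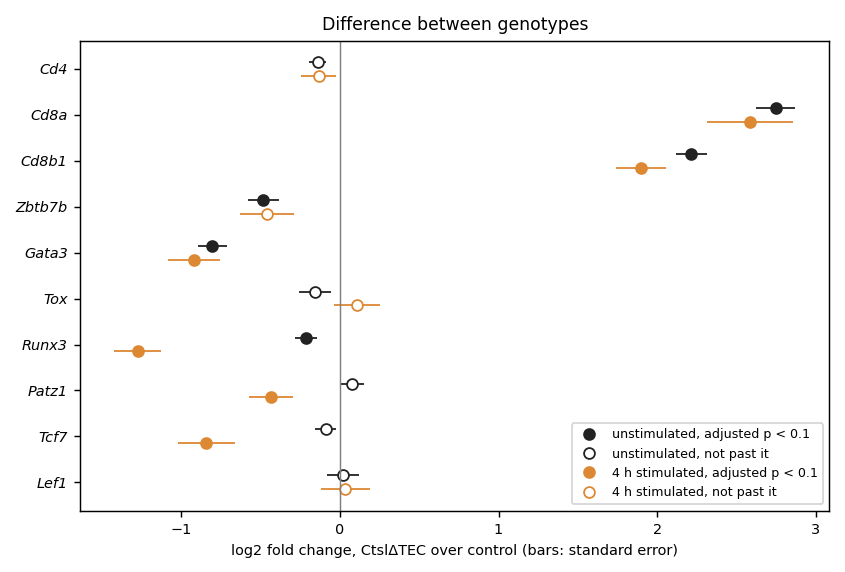
Log2 fold change of CtslΔTEC over control (x) for each of the 10 genes (y), without stimulation (black) and after 4 h (orange), with standard errors derived from edgeR's F statistic. Filled points passed an adjusted p of 0.1. Cd8a and Cd8b1 lie to the right at both times, and Runx3, Tcf7 and Patz1 lie further left after stimulation.

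On stimulation 9 of the 10 genes fell in controls, where 67.7% of all genes tested were called and 34.8% were called lower. In *Ctsl*ΔTEC cells 9 of 10 fell, where 71.2% were called and 38.2% were called lower. The median log2 fold change of the 10 was -1.44 in controls and -1.80 in *Ctsl*ΔTEC cells, beside 0.01 and -0.06 over all genes. *Tox* was the tenth gene in both. The 2 genotypes' comparisons use different mice, and each shares its libraries with the comparisons between genotypes.

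The fall was deepest for *Tcf7*, *Zbtb7b* and *Runx3* in controls and for *Tcf7*, *Runx3* and *Zbtb7b* in *Ctsl*ΔTEC cells. *Tcf7* fell with log2 fold changes of -2.40 ± 0.17 in controls and -3.15 ± 0.18 in *Ctsl*ΔTEC cells (adjusted p = 1.4e-08 and 7.2e-10, edgeR). *Zbtb7b* fell with -2.29 ± 0.16 and -2.26 ± 0.16 (9.7e-09 and 6.8e-09), and *Lef1* with -1.94 ± 0.15 and -1.92 ± 0.14 (2.3e-08 and 1.5e-08). *Runx3* fell with -2.08 ± 0.12 and -3.14 ± 0.14 (2e-09 and 4e-11).

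The coreceptor genes were among those that fell in both genotypes. *Cd8b1* fell with -1.70 ± 0.14 in controls and -2.01 ± 0.13 in *Ctsl*ΔTEC cells (adjusted p = 7.5e-08 and 3e-09, edgeR), and *Cd8a* with -1.14 ± 0.25 and -1.29 ± 0.20 (0.000927 and 3.1e-05). *Cd4* fell with -0.41 ± 0.10 and -0.40 ± 0.09 (0.00164 and 0.00145). *Gata3* fell with -0.90 ± 0.14 and -1.02 ± 0.14, and *Patz1* with -1.17 ± 0.12 and -1.68 ± 0.12. *Tox* had log2 fold changes of -0.08 ± 0.13 and 0.19 ± 0.12 (adjusted p = 0.601 and 0.186, edgeR), and was called higher in *Ctsl*ΔTEC cells in 4 other settings. Without control mouse 6 the value in controls was -2.06 for *Cd8a* and -0.63 for *Cd4*, and without control mouse 5 that of *Cd4* was -0.25. Each of these fits left 1 stimulated control library, so only the values are given.

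Whether the genotypes differed in their response was tested as an interaction, and 2 of the 10 genes passed, against 6.01% of 14241 genes. For *Runx3* the interaction was -1.06 ± 0.17 on the log2 scale (adjusted p = 0.00489, edgeR), so that it fell further in *Ctsl*ΔTEC cells, and it passed in all 23 other settings. For *Tcf7* it was -0.75 ± 0.22 (adjusted p = 0.0733, edgeR), and it did not pass in 12 of 23 other settings, among them without *Ctsl*ΔTEC mouse 6 (-0.43) and without control mouse 5 (-0.60). *Patz1* did not pass at -0.51 ± 0.16 (adjusted p = 0.113, edgeR), but passed in 6 of 23 other settings, and was at -0.34 without *Ctsl*ΔTEC mouse 6 and -0.73 without mouse 7. For *Cd8a* (-0.16 ± 0.31) and *Cd8b1* (-0.31 ± 0.18) the adjusted p was 0.877 and 0.437, and for *Zbtb7b* (0.03 ± 0.20) and *Gata3* (-0.12 ± 0.20) it was 0.982 and 0.85.

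Ratios within a library after stimulation are values only, with 2 mice a group. The TPM of *Zbtb7b* over *Runx3* was 11.7 and 8.93 in *Ctsl*ΔTEC mice and 3.40 and 5.00 in controls, whereas it had overlapped before. That of *Tcf7* over *Lef1* was 2.15 and 3.0 against 5.40 and 4.30. That of *Cd4* over both CD8 chains was 9.27 and 10.0 against 32.0 and 48.0, so that the lower ratio of *Ctsl*ΔTEC cells was present at both times.

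**Figure D3:**
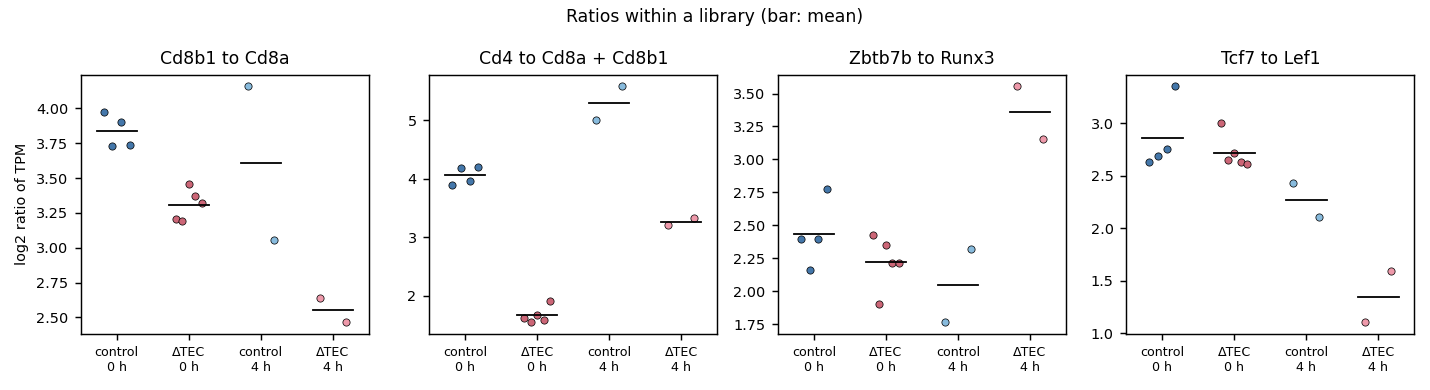
Log2 ratio of TPM within each library (y) for 4 pairs of genes, by genotype and hours of stimulation (x). Each point is 1 mouse and each bar a group mean. The first 2 ratios are lower in every CtslΔTEC mouse than in every control at the same time, and the last 2 separate the genotypes only after stimulation.

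Use of transcripts was compared by the share of each in the TPM of its gene. *Cd8b1* has 1 transcript, and 20 transcripts of the other genes were tested where at least 2 held 10% or more. None of these differed between genotypes without stimulation, and the smallest unadjusted p was 0.159 in the exact permutation test (adjusted p = 0.96). Cd4-201 held 81.6% ± 1.15 of *Cd4* in *Ctsl*ΔTEC cells and 82.5% ± 0.913 in controls, and Cd4-205, which retains an intron, held 12.0% ± 1.70 and 10.3% ± 1.64. Tcf7-201, the longer of 2 forms, held 78.0% ± 4.26 and 77.2% ± 3.53, and it still held 81.0% and 79.9% after stimulation. Shares are estimates of kallisto over transcripts that share exons.

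For *Zbtb7b*, *Runx3* and *Lef1* a transcript from a downstream start was compared with 1 from an upstream start. These transcripts were chosen after their values were seen, and the values are a description without a test. Zbtb7b-203 starts 6173 bases downstream of Zbtb7b-201. Its TPM over that of Zbtb7b-201 was 0.996 to 1.70 in *Ctsl*ΔTEC mice and 1.19 to 2.09 in controls, and after stimulation it was 5.48 and 2.31 against 3.5 and 1.99. Zbtb7b-203 itself was at 46.8 to 53.4 TPM in unstimulated *Ctsl*ΔTEC mice and 71.6 to 77.2 TPM in controls, without overlap, whereas Zbtb7b-201 overlapped.

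Lef1-203, which starts 2326 bases downstream of Lef1-201, was at 1.06 to 2.45 times its level in unstimulated *Ctsl*ΔTEC mice and 1.31 to 2.20 times in controls, and at 5.01, 5.08, 6.40 and 3.01 times in the 4 stimulated libraries, all above the 9 others. Runx3-202, which starts 31844 bases downstream of Runx3-201, was at 0.226 to 0.633 and 0.286 to 0.413 times its level before and at 0.182, 0.145, 0.0881 and 0.220 times after stimulation, all below the 9 others. Runx3-202 was at 0.406 to 1.54 TPM in stimulated libraries. The upstream *Runx3* start, whose window holds the RUNX words, gave 58.1% to 87.3% of *Runx3* TPM over all 13 libraries.

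Summed over all transcripts of each start, *Lef1* stayed apart between unstimulated and stimulated libraries, whereas *Runx3* and *Zbtb7b* overlapped in TPM and not in estimated counts. The downstream *Lef1* start gave 47.9% to 64.9% of *Lef1* TPM without stimulation and 71.0% to 81.2% after it. The downstream *Runx3* start gave 24.8% to 41.9% without stimulation and 15.4%, 12.7%, 35.8% and 19.6% after it, so that control mouse 5 lay within the unstimulated range. The downstream *Zbtb7b* start gave 26.9% to 44.0% and then 39.3% to 48.4%, which overlapped. In estimated counts, which weigh long transcripts more, the downstream *Runx3* start gave 9.11% to 22.2% without stimulation and 5.79% to 8.92% after it. The downstream *Zbtb7b* start gave 45.8% to 62.6% and then 64.2% to 76.6% of estimated counts, and that of *Lef1* gave 38.3% to 56.0% and then 61.7% to 75.4%. The mean log2 shift of the downstream over the upstream start was 1.44 for *Lef1*, -1.20 for *Runx3* and 1.17 for *Zbtb7b* by single transcripts, and 1.28, -0.83 and 0.73 by all transcripts of each start.

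**Figure D4:**
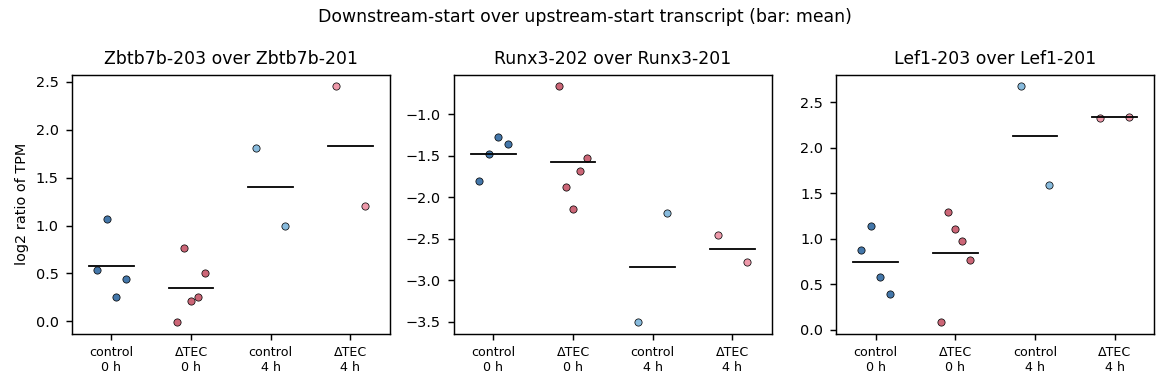
Log2 ratio of TPM (y) of the transcript from the downstream start over that from the upstream start, by genotype and hours of stimulation (x), for Zbtb7b, Runx3 and Lef1. Each point is 1 mouse and each bar a mean. Stimulated libraries lie above all others for Lef1 and below all others for Runx3, and overlap for Zbtb7b. Summed over all transcripts of each start, Runx3 overlaps in TPM and not in estimated counts.

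Other regulators of the lineage choice and of coreceptor transcription were listed for comparison. Of 28 genes, all tested, 3 were higher and 2 lower without stimulation (median log2 fold change -0.01), beside 14.8% of all genes called. After it 3 were higher and 3 lower (0.07), beside 13.3% of all genes. *Myb*, a factor abundant in double-positive thymocytes, averaged 101.9 CPM in *Ctsl*ΔTEC mice and 15.9 CPM in controls (2.68 ± 0.12, adjusted p = 3.1e-07, edgeR). *Runx1*, the RUNX gene that silences *Cd4* before the choice, was lower without stimulation, at -0.28 ± 0.08 (adjusted p = 0.0391, edgeR) and higher after it, at 0.46 ± 0.12 (adjusted p = 0.0268, edgeR), with an interaction of 0.74 ± 0.14 (adjusted p = 0.0149, edgeR). Its direction after stimulation was thus opposite to that of *Runx3*.

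For 5 of these 28 regulators the interaction passed, 2 positive and 3 negative, beside 1.13% and 4.88% of all genes. *Ets1* and *Bcl11b*, which act throughout T cell development, fell further in *Ctsl*ΔTEC cells, with interactions of -1.22 ± 0.23 and -1.02 ± 0.21 (adjusted p = 0.0134 and 0.0184, edgeR), as *Runx3* and *Tcf7* did. *Myb* had the largest of these interactions (-1.82 ± 0.20, adjusted p = 0.000641, edgeR) and rose in both genotypes, by 2.41 ± 0.12 in *Ctsl*ΔTEC cells and 4.23 ± 0.14 in controls (log2). *Tet2*, a DNA demethylating enzyme, had an interaction of 1.17 ± 0.22 (adjusted p = 0.0136, edgeR). On stimulation 13 of the 28 rose and 11 fell in controls, beside 32.9% and 34.8% of all genes. In *Ctsl*ΔTEC cells 15 rose and 10 fell, beside 32.9% and 38.2%.

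Across all 13 libraries the genes most like each of the 10 were those with the highest Pearson correlation of log2 CPM among 10090 genes, as a description in which the 4 stimulated libraries weigh most. For *Cd8a* they were *Pcsk1* (0.98), *Cd8b1* (0.95) and *Igsf23* (0.95), and for *Cd8b1* they were *Slamf6* (0.98), *Igsf23* (0.96) and *Cd8a* (0.95). For *Gata3* they were *Aldh2*, *Stk39* and *Sh3bgrl3* (0.98 for each). For *Runx3* (*Zer1*, *Timp2* and *Mfge8*), *Zbtb7b* (*Acvrl1* and *Galnt10*), *Tcf7* (*Fam214a*, *Pik3cd* and *Rgs14*), *Patz1* (*Ankrd13d*, *Ypel3* and *Mknk2*) and *Lef1* (*Srbd1*, *Zfp652* and *Rsrp1*) the values were 0.99 or above. They were 0.97 for *Cd4* (*Madd* and *Adar*) and 0.83 to 0.84 for *Tox* (*Tank*, *Arcn1* and *Zfp992*), the gene whose levels varied least between groups.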

How the data were processed

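The authors quantified RNA-seq reads against mouse Ensembl transcripts with kallisto (version 0.48) and deposited, for each transcript and library, estimated counts, TPM and effective length. The labels name polyA selection and the study's methods name rRNA depletion, which is not settled here. Of 117497 transcripts, 116397 were paired with a gene (GENCODE M21, GRCm38), and those without held at most 0.461% of counts. Estimated counts were summed per gene, rounded to whole numbers and scaled by TMM (CPM, prior count 2). The values deposited as TPM were summed per gene and compare levels between genes.

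Genotypes without stimulation were compared in the 9 unstimulated libraries, and all other contrasts came from 1 model with 4 groups, by edgeR's quasi-likelihood test (edgeR 4.0.16, R 4.3.3) with Benjamini-Hochberg adjustment over all genes tested and a threshold of 0.1. Genes were filtered with edgeR's filterByExpr. Standard errors (SE) were derived from the test, as the absolute log2 fold change over the square root of its F statistic. Ratios and transcript shares (transcripts with a mean share of at least 10%) were compared by two-sided exact permutation tests. The model code was tested on simulated data. P-values measure the spread between mice. Alternatives were DESeq2 (1.42.0), other scalings and filters, a length offset (effective length, as deposited), dates, a Y-linked covariate, a replicate block and leaving out each mouse. The text names all 10 genes, up to 3 genes per direction and list with the smallest p, and the 3 genes most correlated with each of the 10, of which some are not reported here. The genes and lists were chosen with earlier results of these data known.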

Additional observations from a re-analysis of the deposited data

Results flagged for a closer look

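The responses of *Runx3* and *Tcf7* to stimulation differed between genotypes by the test of the interaction, at -1.06 and -0.75 on the log2 scale, and only the first passed in every other setting tried. In 3 of 28 groups tested a single mouse lay far from the others, where chance gives about 1.4 (1 in 20 groups). These were control mouse 2 for *Tox* (7.62 log2 CPM), and *Ctsl*ΔTEC mouse 1 (3.001) and control mouse 4 (3.35) for the log2 ratio of *Tcf7* to *Lef1*. The same *Ctsl*ΔTEC mouse had the lowest *Tox* of its group and the highest ratio of Runx3-202 to Runx3-201, and control mouse 4 had the lowest *Lef1*.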

How the results depend on the processing

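*Cd8a*, *Cd8b1* and *Gata3* kept their calls without stimulation in every setting tried. The number of the 10 genes called without stimulation was 3 with the Y-linked covariate, beside 430 of all 13152 genes tested. It was 4 to 5 with 1 mouse left out (1534 to 2343 genes in all) and 6 with DESeq2 (2299 in all). After stimulation it was 4 with the length offset (1690 of 14241 genes) and 7 with DESeq2 (2076 in all). It was then 5 to 7 with 1 unstimulated mouse left out (1665 to 2108 in all). For the interaction it was 1 at an adjusted p under 0.05 (471 genes in all) and with the Y-linked covariate (677 in all). It was 3 with DESeq2 (1050 in all) and 1 to 2 with 1 unstimulated mouse left out (572 to 864 in all). The cause was not tested.

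With the later date alone the log2 difference in the ratio of *Cd8b1* to *Cd8a* was -0.57 and that of *Cd4* to both CD8 chains -2.33, where 3 against 3 mice cannot pass. With 1 mouse left out, the ratio of *Zbtb7b* to *Runx3* differed by -0.30 to -0.10 (it passed without control mouse 2) and that of *Tcf7* to *Lef1* by -0.21 to 0.029 (it reversed without control mouse 4).

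The replicate numbers did not pair the mice (correlations of deviations -0.157, 0.352, -0.098 and -0.142). With the replicate block 4 of the 10 genes were called, *Runx3* being lost at -0.24, and 1051 genes in all, against 1943 without it. The Y-linked covariate gave 430 genes, date as a factor 2710. After stimulation the 4 stimulated libraries alone gave 1127 genes against 1898, and the interaction 471 at an adjusted p under 0.05 against 856.

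Values that changed sign were all uncalled. With library totals as scaling the interaction was -0.043 for *Cd4*, -0.033 for *Lef1* and -0.026 for *Zbtb7b*. With the length offset it was 0.38 for *Gata3* and -0.006 for *Lef1*, with coding transcripts alone -0.009 for *Cd4*, and with the Y-linked covariate 0.011 for *Gata3* and 0.14 for *Cd8a*. Without stimulation, *Tcf7* was at 0.005, *Patz1* at -0.066 and *Lef1* at -0.035 with that covariate, and *Lef1* at -0.037 with the later date alone. With 1 mouse left out, *Lef1* ranged over -0.091 to 0.071 without and -0.12 to 0.16 after stimulation, *Cd4* over -0.32 to 0.062 after it, and the interactions over -0.14 to 0.15 (*Lef1*), -0.20 to 0.30 (*Zbtb7b*), -0.39 to 0.10 (*Gata3*), -0.17 to 0.21 (*Cd4*) and -0.46 to 0.75 (*Cd8a*). *Zbtb7b* after stimulation passed in 4 settings, and was at -0.68 without control mouse 5 and -0.19 without control mouse 6. With at least 10 counts in every library *Cd8a* was not tested after stimulation, since control mouse 5 held 8.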
